A study of Mus musculus with 6 samples.

Results

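Interleukins, colony-stimulating factors and their receptors were followed in the uterus of pregnant mice between day 15.5 and day 18.5 after mating. The genes were taken by name. A probe was included if its gene symbol began with Il followed by a digit, or was Csf1, Csf2, Csf3, Csf1r, Csf2ra, Csf2rb, Csf3r, Lif, Lifr, Osm or Osmr. This gave 171 of the 45281 probes on the array and 96 of its 30789 gene symbols. Of these 96 genes, 44 encode ligands, 48 encode receptor chains, and 4 encode binding proteins, enzymes or similar factors. The names of 91 genes are current RefSeq symbols (GRCm38.p6), and 5 are older synonyms: Il1rl1l is now Tmed1, Il8ra is Cxcr1, Il8rb is Cxcr2, Il28b is Ifnl3 and Il28ra is Ifnlr1.

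Total RNA was hybridised to 6 Illumina bead arrays of a single colour, 3 from day 15.5 and 3 from day 18.5 of pregnancy, when the mouse uterus is close to term. The tissue is uterus in the sample labels and myometrium, its muscle layer, in the series' design text. No strain, genotype or treatment is given, and the number of animals behind an array is not stated. The design text counts 18 biological replicates a day, against 3 arrays a day here, and does not say whether animals were pooled. The p-values therefore rest on array-to-array spread, which may be partly technical and, if animals were pooled, is not the spread between animals.

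Interleukins and colony-stimulating factors are secreted proteins through which leukocytes, epithelium, stroma and muscle signal to each other. The IL-1 family acts through receptors that recruit MyD88 and IRAK kinases towards NF-kappaB, and most of the others act through receptor chains that carry JAK kinases and activate STAT factors. In the pregnant uterus, colony-stimulating factor 1 is known for its action on macrophages, IL-15 for its action on uterine natural killer cells, and LIF for its role in implantation.

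All 6 arrays lay on 1 chip with the days in separate stretches, so chip position and day cannot be told apart. Between 43.6% and 46.5% of all probes were detected per array (detection p below 0.05). Pearson correlations over probes were 0.987 to 0.992 between arrays of the same day and 0.945 to 0.960 between days. Levels are given on the log2 scale of background-corrected and quantile-normalized intensity. The lowest level of a detected probe was 5.34 to 5.52 depending on the array. A level belongs to its probe and does not give the amount of RNA of a gene relative to another gene. Brightness served only to choose a gene's probe or the example of a list, and a summed marker level is weighted to the list's brightest probes. A difference is the mean of day 18.5 minus the mean of day 15.5 on that scale, with its standard error (SE), and n = 3 arrays a day throughout. A gene was called higher or lower when the Benjamini-Hochberg adjusted p of its brightest tested probe was below 0.05. In whole tissue, fewer cells of a type and less RNA per cell cannot be told apart.

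Many of these genes gave no signal above background, and this was more frequent for ligands than for receptor chains. Probes detected on at least 3 of the 6 arrays were tested. This left 74 of the 171 probes (43.3%, against 45.7% of all probes on the array) and 54 of the 96 genes (56.2%, against 47.9% of all symbols). A further 36 genes were detected on no array, and 6 were detected on too few arrays to be tested. Of the 44 ligand genes, 16 were tested (36.4%), 24 were detected on no array and 4 on too few. Of the 48 receptor chain genes, 35 were tested (72.9%), 11 were detected on no array and 2 on too few. The ligands without any detected probe were Csf2, Il2, Il3, Il4, Il5, Il6, Il9, Il12a, Il12b, Il17a, Il17b, Il17c, Il17f, Il19, Il1f5, Il1f6, Il1f9, Il20, Il21, Il22, Il25, Il27, Il28b and Il31. A level below the detection limit is only a bound on these arrays.

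**Figure D1:**
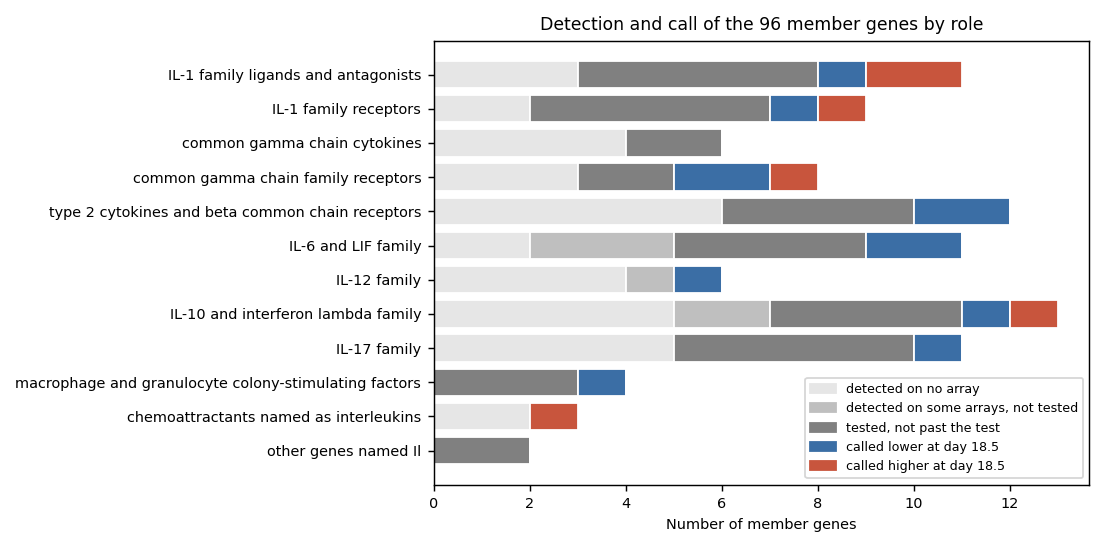
Number of genes (x axis) in each role list (y axis), stacked by outcome: detected on no array, detected on some arrays but not tested, tested without passing, called lower (blue) or called higher (red) at day 18.5. All 4 genes of the macrophage and granulocyte list were tested, whereas 1 of 6 genes of the IL-12 family was.

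Among the 54 tested genes, 18 were called (33.3%, against 25.2% of the 14751 genes tested in all). They comprised 12 genes called lower at day 18.5 (22.2%, against 13.0% of all genes tested) and 6 called higher (11.1%, against 12.2%). Il23a, called lower, and Il1rn, called higher, passed the detection filter only through the day on which they were higher. The median difference was -0.11 over these 54 genes and 0.02 over all genes tested. A called difference of at least 2-fold was seen for 9 genes (16.7%, against 7.64%). The arrays of the 2 days did not overlap for 26 genes (48.1%, against 42.8%), and these included all 18 called genes. At the level of single probes, 6 of 74 were called higher (8.11%, against 11.6% of all probes tested) and 17 lower (23.0%, against 13.2%), so that 23 were called either way (31.1%, against 24.8%). Of these, 11 differed at least 2-fold (14.9% of the 74, against 7.17%), and the days did not overlap for 35 probes (47.3%, against 41.7%). Of the 35 tested receptor chain genes, 9 were called lower and 2 higher, with a median difference of -0.28. Of the 16 tested ligand genes, 3 were called lower and 4 higher, with a median of 0.07. None of the 3 tested binding proteins and enzymes (Il18bp, Il4i1 and Il1rl1l) passed the test, at differences of 0.08, -0.34 and -0.32.

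**Figure D2:**
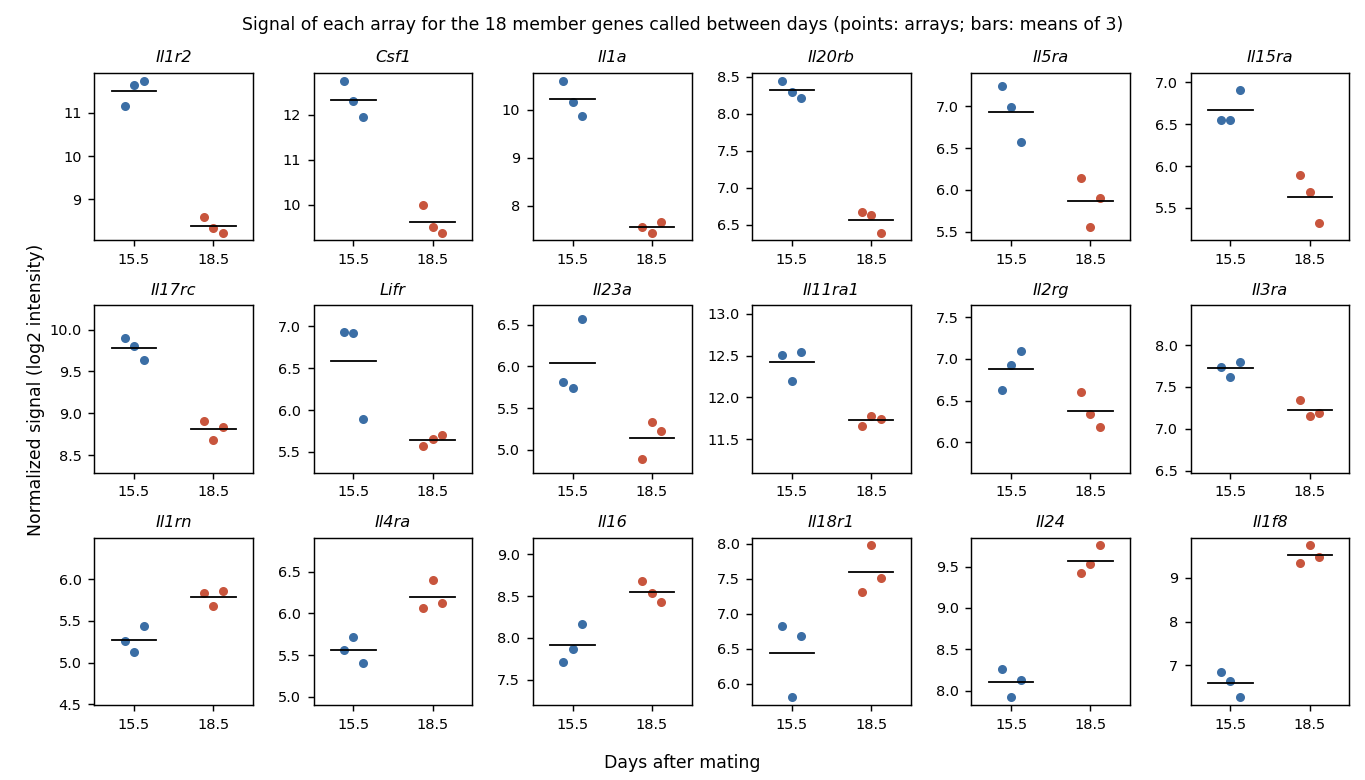
Normalized log2 intensity (y axis, scaled for each panel) at each day after mating (x axis) for the 18 called genes, 1 panel a gene. Points are arrays and bars are means of the 3 arrays of a day, and in every panel the points of the 2 days do not overlap, with the smallest gap for Il2rg.

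In the IL-1 family, the decoy receptor and an agonist fell, while another agonist rose. The receptor antagonist was also called higher, but close to background and not under every alternative. Of 8 tested ligands, antagonists and binding proteins of the family, 2 rose, 1 fell and 5 did not pass. Across all genes tested, 12.2% were called higher and 13.0% lower. Il1r2 encodes the decoy receptor, which binds IL-1 without signalling. Its level was 11.15, 11.63 and 11.74 on the arrays of day 15.5 and 8.60, 8.34 and 8.23 on those of day 18.5. It fell by 3.12 on the log2 scale (SE 0.18, adjusted p 5.74e-06), an 8.68-fold difference and the largest among the 54 tested interleukin, colony-stimulating factor and receptor genes. Il1a encodes IL-1 alpha, an agonist that cells release on damage. Its brightest probe gave 10.61, 10.18 and 9.88 at day 15.5 and 7.55, 7.43 and 7.65 at day 18.5, a 6.40-fold fall (log2 difference -2.68, SE 0.18, adjusted p 1.49e-05). A second probe of Il1a gave 10.23, 10.31 and 9.54 and then 7.59, 7.62 and 7.55, a 5.41-fold fall. Both Il1a probes thus separated the days by more than the spread within either day.

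Il1b, the agonist made mainly by activated myeloid cells, did not follow Il1a. It was at 6.27, 6.39 and 5.91 at day 15.5 and 6.16, 6.82 and 7.39 at day 18.5, a difference of 0.60 (95% interval -0.01 to 1.21, adjusted p 0.145). The first day 18.5 array lay among the day 15.5 arrays and the other 2 above them. Without that array the adjusted p was 0.0147, against 0.0147 to 0.391 over the alternatives.

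Il1f8 encodes IL-36 beta, an agonist known mainly from epithelia. It was at 6.86, 6.63 and 6.26 at day 15.5 and 9.35, 9.74 and 9.48 at day 18.5, a 7.68-fold rise (log2 difference 2.94, SE 0.17, adjusted p 7.51e-06). Its receptor chain Il1rl2 was near the detection limit, at 5.88, 6.01 and 6.31 and then 5.36, 5.65 and 5.82, with a difference of -0.46 that did not pass (95% interval -0.82 to -0.09, adjusted p 0.0683, in a range of 0.0291 to 0.212). The other IL-36 agonists on the array, Il1f6 and Il1f9, and the IL-36 receptor antagonist Il1f5 were detected on no array. Il1f10, a further family member, differed by -0.18 (adjusted p 0.575).

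Il1rn, the IL-1 receptor antagonist, was below the detection limit on every day 15.5 array and above it on all 3 day 18.5 arrays. Its levels were 5.25, 5.13 and 5.44 and then 5.83, 5.67 and 5.86, so with this processing day 18.5 was at least 1.26-fold higher (log2 difference 0.52, SE 0.13, adjusted p 0.0175). These values lie close to background, and 3 other Il1rn probes were detected on no array. Il1rn passed the detection filter only through the day 18.5 arrays, on which it was higher, so its adjusted p is not independent of the filter. The call was lost with an offset of 50 (adjusted p 0.0564), without background correction (0.0679), and without the second day 15.5 array (0.0561) or the first (0.0571) or the third (0.0526) day 18.5 array, in a range of 0.0158 to 0.0679 over the alternatives. Il18 differed by 0.03 and Il33, an alarmin of stromal and epithelial cells, by 0.30, and neither passed. Il33 was at 7.14, 7.37 and 6.36 at day 18.5 against 6.57 to 6.78 at day 15.5, with the third day 18.5 array below all others. The adjusted p of Il33 was 0.393, and 0.0218 without that array, in a range of 0.0218 to 0.828.

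Among the IL-1 family receptors, 7 of 9 genes were tested, 1 was called higher, 1 lower (Il1r2) and 5 did not pass. The shares over all genes tested were 12.2% higher and 13.0% lower. Il18r1, the chain that binds IL-18, was at 6.82, 5.80 and 6.68 at day 15.5 and 7.32, 7.98 and 7.51 at day 18.5, a 2.24-fold rise (log2 difference 1.17, SE 0.27, adjusted p 0.0116). The second day 15.5 array was the lowest, and the call was lost when the detection filter was dropped (adjusted p 0.0554, in a range of 0.0038 to 0.0554). Il18r1 had further probes, which were detected on no array. Its partner chain Il18rap differed by 0.06. The signalling receptor Il1r1 differed by -0.40 (adjusted p 0.136, and 0.0224 without the second day 18.5 array, in a range of 0.0224 to 0.333). The IL-33 receptor Il1rl1 was at 5.70, 6.68 and 6.78 and then 5.83, 5.72 and 5.58, with the first day 15.5 array among those of day 18.5. It differed by -0.68 (adjusted p 0.0850, and 0.00150 without that array, in a range of 0.00150 to 0.253). Il1rap, the shared accessory chain, had 5 tested probes with differences from -0.43 to 0.10, and none passed. In the RefSeq order of mouse chromosome 1, Il1r2, Il1r1, Il1rl2, Il1rl1, Il18r1 and Il18rap follow each other with at most 3 other protein-coding genes between them, with the called fall at the first and the called rise at the fifth. On chromosome 2, Il1f8 and Il1rn, which both rose, stand at the ends of a row that also holds Il1f9, Il1f6, Il1f5 and Il1f10.

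Markers of other cell types are given beside these genes as measured values. All 7 tested epithelial markers rose, against 12.2% of all genes tested. Their summed level was 13.47 to 14.09 on the day 15.5 arrays and 15.04 to 15.23 on those of day 18.5. Cldn4 and Elf3 rose by 2.70 and 2.13 on the log2 scale. The sum of the macrophage markers was 14.44 to 14.72 and then 14.79 to 14.85, and the sum of the 3 tested neutrophil markers was 8.72 to 9.09 and then 8.89 to 9.09. Of these 3, S100a9 rose by 0.67 (adjusted p 0.0331), while S100a8 and Mpo did not pass, at differences of 0.12 and -0.10. The part of these cells in the rise of Il1f8, Il1rn and Il24 was not tested.

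Of the colony-stimulating factors and their receptors, the macrophage factor fell and its receptor did not pass the test. Csf1 encodes colony-stimulating factor 1, on which macrophages depend. Its level was 12.76, 12.30 and 11.95 at day 15.5 and 9.99, 9.51 and 9.37 at day 18.5, a 6.54-fold fall (log2 difference -2.71, SE 0.22, adjusted p 4.13e-05). The lowest day 15.5 array was well above the highest of day 18.5. Csf1r, the receptor kinase for CSF-1, had a brightest probe at 9.67, 9.87 and 9.62 and then 9.90, 10.12 and 10.13. The days did not overlap at this probe, but its difference of 0.33 did not pass (95% interval 0.04 to 0.62, adjusted p 0.0956), and a second probe differed by 0.07 (adjusted p 0.780).

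Csf3, the granulocyte factor, was close to the detection limit, was detected on 3 arrays of day 15.5 and 1 of day 18.5, and had a difference of -0.41 (95% interval -0.83 to 0.01, adjusted p 0.145). Its receptor Csf3r differed by 0.05 (adjusted p 0.814). Csf2, the granulocyte-macrophage factor, and Csf2rb, the beta chain shared with IL-3 and IL-5, were detected on no array, whereas the alpha chain Csf2ra was detected on all 6 and differed by 0.02 (adjusted p 0.918). Among 10 tested macrophage markers, which include Csf1r, 1 rose (Cd14, by 1.54), 1 fell (Mrc1, by 0.71) and 8 did not pass. The brightest of them, Lyz2, differed by 0.08. Across all genes tested, 12.2% were called higher and 13.0% lower. Whether macrophage content had a part in the levels of Csf1 or Csf1r was not tested.

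**Figure D3:**
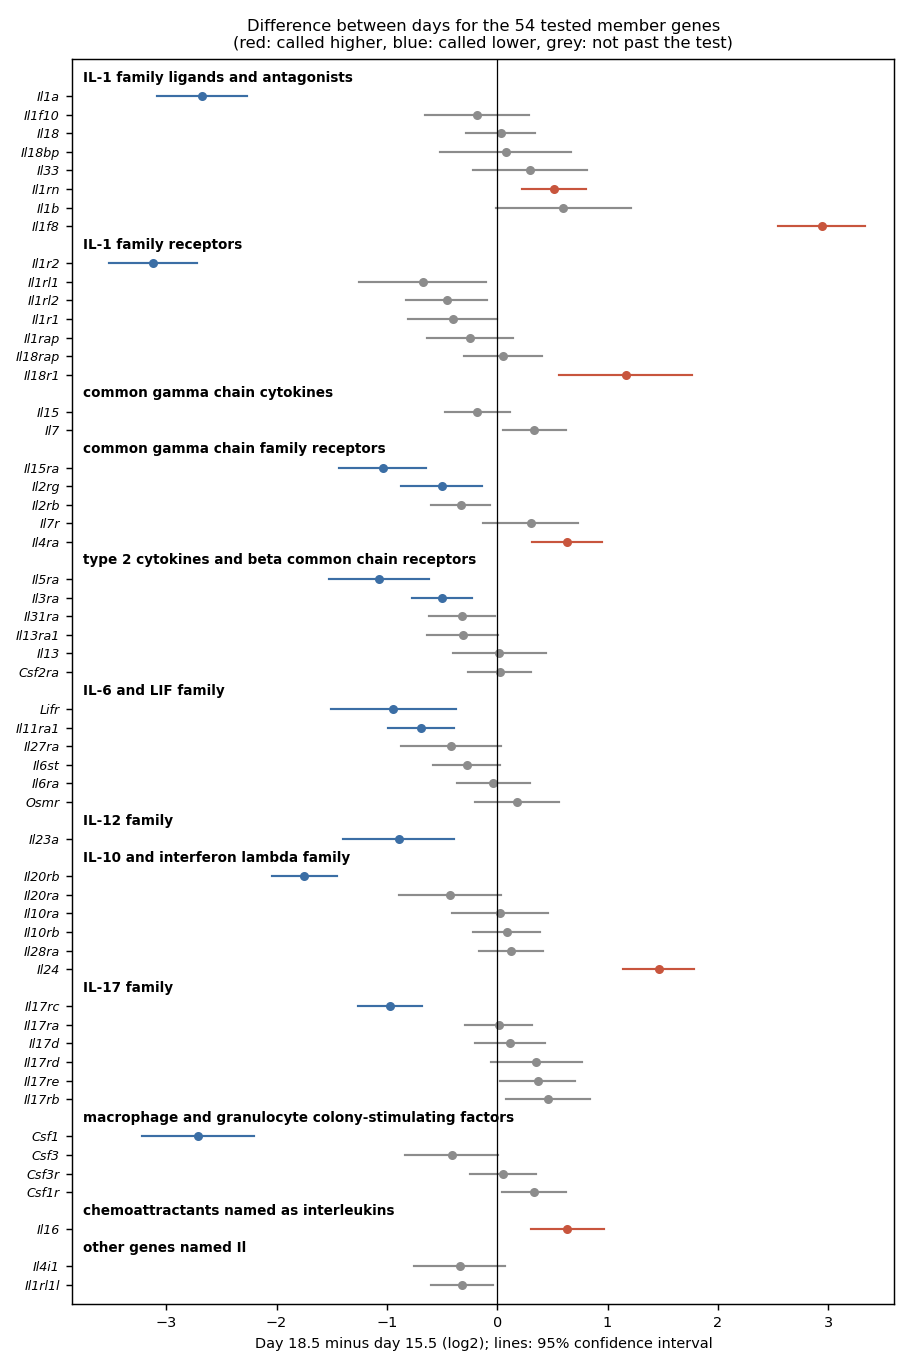
Log2 difference between the days (x axis, day 18.5 minus day 15.5) of the 54 tested genes (y axis), grouped by role list. Points are differences of the brightest tested probe, lines are 95% confidence intervals, and colour marks genes called higher (red), called lower (blue) or not past the test (grey). Il1r2, Csf1 and Il1a lie farthest to the left and Il1f8 farthest to the right.

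The promoters of the genes with the largest changes were searched for 2 motifs: the E-box CACCTG, which ZEB1 and ZEB2 of the series' title are known to bind, and the NF-kappaB type motif GGGANNNNCC, where N is any base. Both strands were searched. The windows run from 250 bases before to 50 bases after the gene's start, 5' to 3' on the strand of the gene, from RefSeq annotation of GRCm38.p6, and 16 of the 18 called genes had one. Where several starts were listed for a gene, only the first was searched. Among the called genes, Il16, Il18r1 and Il1rn had 3 listed starts and Il15ra, Il11ra1 and Lifr had 2. An E-box was found in 20.0% of 27025 promoters, in 15 of 76 promoters of the genes described here (19.7%), in 1 of 5 of those called higher and in 0 of 11 of those called lower. The NF-kappaB type motif was found in 20.5% of all promoters, in 26 of the 76 (34.2%), in 5 of the 11 called lower (45.5%) and in 1 of the 5 called higher. A match describes the letters of the window only and is neither a bound site nor a cause. The windows of the 4 genes with the largest differences and of Il16, the called gene with E-boxes, are as follows, with matches in capitals.
Csf1 (chr3:107760420.0-107760719.0, minus strand): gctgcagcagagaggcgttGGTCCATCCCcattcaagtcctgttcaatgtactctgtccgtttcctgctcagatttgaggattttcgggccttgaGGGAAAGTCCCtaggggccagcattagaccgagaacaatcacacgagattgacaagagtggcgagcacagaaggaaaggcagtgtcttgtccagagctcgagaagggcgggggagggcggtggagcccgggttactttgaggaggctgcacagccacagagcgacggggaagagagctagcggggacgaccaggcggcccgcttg
Il1a (chr2:129309923.0-129310222.0, minus strand): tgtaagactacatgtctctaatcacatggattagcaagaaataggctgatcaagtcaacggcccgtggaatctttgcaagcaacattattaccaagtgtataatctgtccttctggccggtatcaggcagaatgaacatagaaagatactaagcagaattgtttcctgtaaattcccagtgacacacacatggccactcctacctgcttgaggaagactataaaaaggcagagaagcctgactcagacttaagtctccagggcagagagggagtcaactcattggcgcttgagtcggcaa
Il1r2 (chr1:40085843.0-40086142.0, plus strand): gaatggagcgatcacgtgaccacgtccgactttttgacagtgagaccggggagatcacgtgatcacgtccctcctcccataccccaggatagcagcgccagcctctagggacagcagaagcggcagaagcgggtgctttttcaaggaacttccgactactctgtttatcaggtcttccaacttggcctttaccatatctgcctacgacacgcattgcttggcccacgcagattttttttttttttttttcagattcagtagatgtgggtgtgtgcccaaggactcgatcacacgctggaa
Il1f8 (chr2:24152922.0-24153221.0, plus strand): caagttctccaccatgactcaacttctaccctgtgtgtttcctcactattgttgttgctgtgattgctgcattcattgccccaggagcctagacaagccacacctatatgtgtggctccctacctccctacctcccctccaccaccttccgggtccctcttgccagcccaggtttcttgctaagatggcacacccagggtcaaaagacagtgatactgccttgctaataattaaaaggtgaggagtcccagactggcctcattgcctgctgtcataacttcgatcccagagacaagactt
Il16 (chr7:83735490.0-83735789.0, minus strand): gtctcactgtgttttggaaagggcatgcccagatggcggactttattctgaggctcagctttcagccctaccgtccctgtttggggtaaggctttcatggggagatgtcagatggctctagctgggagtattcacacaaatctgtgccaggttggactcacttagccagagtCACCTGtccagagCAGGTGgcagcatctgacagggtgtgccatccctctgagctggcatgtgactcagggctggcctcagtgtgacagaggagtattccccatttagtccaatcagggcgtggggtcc
The Csf1 window held 3 NF-kappaB type matches, 1 beginning at position -231 from the gene's start and 2 overlapping ones at -155 and -154. The Il16 window held 2 E-boxes, beginning at positions -78 and -65. The windows of Il1a, Il1r2 and Il1f8 held neither motif.

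In the IL-10 and interferon lambda family, 1 ligand rose, 1 receptor chain fell and 4 of the 6 tested genes did not pass. The shares over all genes tested were 12.2% called higher and 13.0% lower. Il24 encodes a cytokine that acts on epithelia through receptors of IL-20 type. It was at 8.26, 7.92 and 8.13 at day 15.5 and 9.42, 9.53 and 9.76 at day 18.5, a 2.76-fold rise (log2 difference 1.46, SE 0.14, adjusted p 0.000103). Il20rb encodes the beta chain of those receptors. Its brightest probe was at 8.44, 8.29 and 8.22 and then at 6.68, 6.64 and 6.39, a 3.36-fold fall (log2 difference -1.75, SE 0.13, adjusted p 2.35e-05). At these probes the ligand and the receptor chain thus moved in opposite directions, each with the days apart. A second Il20rb probe was close to the detection limit and differed by -0.49 without passing (adjusted p 0.111). The remaining Il20rb probes were detected on 1 array or on none and were not tested.

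The alpha chain Il20ra differed by -0.43 (adjusted p 0.168). Il10rb, the chain shared by IL-10, IL-22 and the interferons lambda, differed by 0.09 at its brightest probe and by -0.29 at a dimmer one, and neither passed. Il10ra differed by 0.03 and Il28ra, the interferon lambda receptor, by 0.12. Il10 itself was detected on 1 array of day 15.5 and on none of day 18.5 and was not tested. On chromosome 1, Il24 stands beside Il20, Il19 and Il10, of which the first 2 were detected on no array.

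Receptor chains of the common gamma chain family changed in both directions, with 2 of 5 tested chains lower and 1 higher. The shares over all genes tested were 13.0% lower and 12.2% higher. Both tested ligands of the family did not pass. Il15ra, which presents IL-15 to natural killer cells, was at 6.56, 6.56 and 6.91 at day 15.5 and 5.89, 5.69 and 5.31 at day 18.5, a 2.06-fold fall (log2 difference -1.04, SE 0.17, adjusted p 0.00218). A second probe differed by -1.02 (adjusted p 0.00740). At day 18.5 the first of these Il15ra probes was detected on 2 arrays and the second on 1, so both were close to the detection limit there. Il2rg, the common gamma chain itself, was at 6.62, 6.92 and 7.09 and then 6.60, 6.34 and 6.18. The lowest day 15.5 array was barely above the highest of day 18.5. It fell by 0.50 (SE 0.16, adjusted p 0.0484), and the call was lost under 8 of 15 alternatives, in a range of 0.0147 to 0.156. These included leaving out the second (adjusted p 0.118) or the third (0.156) day 15.5 array and the second (0.124) or the third (0.140) day 18.5 array.

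Il4ra, the chain that binds IL-4 and takes part in the IL-13 receptor, was at 5.56, 5.72 and 5.41 and then 6.06, 6.40 and 6.12, a 1.55-fold rise (log2 difference 0.63, SE 0.14, adjusted p 0.0103). It was close to the detection limit at day 15.5, with 2 arrays detecting it, and its adjusted p reached 0.0469 over the alternatives. Il2rb differed by -0.33 (adjusted p 0.0730) and Il7r by 0.30 (adjusted p 0.290). Il15 was detected on all arrays at 8.38, 8.24 and 8.47 and then 8.30, 8.02 and 8.23. Its difference of -0.18 did not pass (95% interval -0.47 to 0.11, adjusted p 0.356), and 2 further tested probes differed by -0.17 and 0.16. Il7, a lymphocyte growth factor, differed by 0.34 with the days apart (adjusted p 0.0826). Il2, Il4, Il9 and Il21 were detected on no array.

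Of 6 tested markers of natural killer and T cells, 5 fell (against 13.0% of all genes tested) and 1 did not pass. Prf1 and Klrg1 had log2 differences of -3.20 and -3.06. The summed level of these markers was 12.42 to 12.76 at day 15.5 and 9.43 to 9.86 at day 18.5, and Gzmb, Ncr1, Cd247 and Eomes did not pass the detection filter. The part of these cells in the falls of Il15ra and Il2rg was not tested.

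Among 6 tested genes of type 2 cytokines and beta common receptors, 2 receptor chains fell and 4 genes did not pass. Across all genes tested, 13.0% were called lower. Il5ra, which binds IL-5 on eosinophils, was at 7.24, 6.99 and 6.58 at day 15.5 and 6.14, 5.55 and 5.90 at day 18.5, a 2.10-fold fall (log2 difference -1.07, SE 0.20, adjusted p 0.00415). Il3ra, the IL-3 receptor alpha chain, was at 7.74, 7.62 and 7.80 and then 7.34, 7.15 and 7.18, a 1.41-fold fall (log2 difference -0.50, SE 0.12, adjusted p 0.0147). The Il3ra call was lost without the third day 15.5 array (adjusted p 0.0547) and without the second day 18.5 array (adjusted p 0.0662), in a range of 0.00357 to 0.0662. Il13ra1, a chain of the receptor for IL-4 and IL-13, was at 10.52, 10.49 and 10.43 and then 9.96, 10.09 and 10.44, and its difference of -0.31 did not pass (adjusted p 0.150). The last of these arrays lay among those of day 15.5, and without it the adjusted p was 0.0409, in a range of 0.0409 to 0.394. Il31ra differed by -0.32 (adjusted p 0.119) and Il13 by 0.02. Of 5 tested mast cell markers, 3 rose (against 12.2% of all genes tested). The summed level of the 5 was 11.62 to 12.12 and then 12.42 to 12.55.

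In the IL-6 and LIF family, 2 of 6 tested receptor chains fell (against 13.0% of all genes tested) and 4 did not pass. The ligands taken by name were at or below the detection limit. The gp130 ligands Clcf1 and Ctf1, which the naming rule leaves out, are given further below. Il11ra1, the IL-11 receptor alpha chain, was at 12.51, 12.20 and 12.55 at day 15.5 and 11.65, 11.78 and 11.74 at day 18.5, a 1.62-fold fall (log2 difference -0.69, SE 0.13, adjusted p 0.00470). Its other probe fell 1.70-fold (adjusted p 0.00274). Lifr, the LIF receptor, was at 6.93, 6.93 and 5.89 and then 5.57, 5.65 and 5.70. The third day 15.5 array was closer to the day 18.5 arrays than to the other 2 of its day. The fall of 0.94 on the log2 scale (SE 0.25, adjusted p 0.0234) was lost without the first (0.0756) or second (0.0903) day 15.5 array, without the first (0.0563), the second (0.0524) or the third (0.0560) day 18.5 array, and without a detection filter (0.0875), in a range of 0.000405 to 0.0903. A pair of other Lifr probes was detected on 2 arrays of day 15.5 and none of day 18.5 and was not tested.

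Il6st, the signalling chain gp130 shared by this family, differed by -0.28 (95% interval -0.58 to 0.03, adjusted p 0.172). Il6ra, the IL-6 receptor, had 3 tested probes with differences from -0.32 to 0.07, and Osmr, the oncostatin M receptor, differed by 0.18 (adjusted p 0.481). Il27ra differed by -0.42 (adjusted p 0.165, and 0.0351 without the second day 15.5 array, in a range of 0.0351 to 0.425). On the ligand side, Il6 and Il27 were detected on no array. Il11 was detected on 1 array of day 18.5, Lif on 1 array of day 18.5 through 1 of its 5 probes, and Osm on few arrays through both of its probes.

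In the IL-17 family, Il17rc fell (1 of 6, against 13.0% of all genes tested) and the other 5 tested genes did not pass. Il17rc, which pairs with Il17ra to bind IL-17, was at 9.90, 9.81 and 9.64 and then 8.91, 8.68 and 8.84, a 1.96-fold fall (log2 difference -0.97, SE 0.13, adjusted p 0.000578). All 3 of its tested probes differed by -0.97. Its partner Il17ra differed by 0.01, Il17rd by 0.36 and Il17d by 0.11. Il17re, the IL-17C receptor chain, was at 9.54, 9.19 and 9.02 and then 9.62, 9.70 and 9.52, with a difference of 0.37 (adjusted p 0.113, and 0.0297 without the first day 15.5 array, in a range of 0.0297 to 0.328). Il17rb, which binds IL-25, differed by 0.46 with the days apart (adjusted p 0.0756). Il17a, Il17b, Il17c, Il17f and Il25 were detected on no array.

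Il23a, the p19 subunit of IL-23, was the only tested gene of the IL-12 family. It was at 5.81, 5.74 and 6.57 at day 15.5, where all arrays detected it, and at 4.89, 5.33 and 5.22 at day 18.5, where none did. With this processing it was at least 1.52-fold lower at day 18.5 (log2 difference -0.89, SE 0.22, adjusted p 0.0172). Il23a passed the detection filter only through the day 15.5 arrays, on which it was higher, so its adjusted p is not independent of the filter. Its other probe was detected on no array. The call was lost without a detection filter (adjusted p 0.0658) and without the first day 18.5 array (adjusted p 0.0540), in a range of 0.0107 to 0.0658. Il12a and Il12b, which encode the subunits of IL-12, were detected on no array. Il16, a chemoattractant for CD4+ cells that is unrelated to the other families, was at 7.71, 7.87 and 8.16 and then 8.68, 8.53 and 8.43, a 1.55-fold rise (log2 difference 0.64, SE 0.15, adjusted p 0.0121). The other Il16 probes were detected on no array. Il8ra and Il8rb, chemokine receptors, were also detected on no array.

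Of 13 genes with at least 2 tested probes, 5 had a called probe. In 4 of these (Il1a, Il11ra1, Il15ra and Il17rc) every tested probe was called lower, and in Il20rb 1 of 2 was. The other 8 genes had no probe past the test, and in 4 of them all differences had the same sign. Of the 54 tested genes, 20 had at least 1 further probe that was detected on no array.

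**Figure D4:**
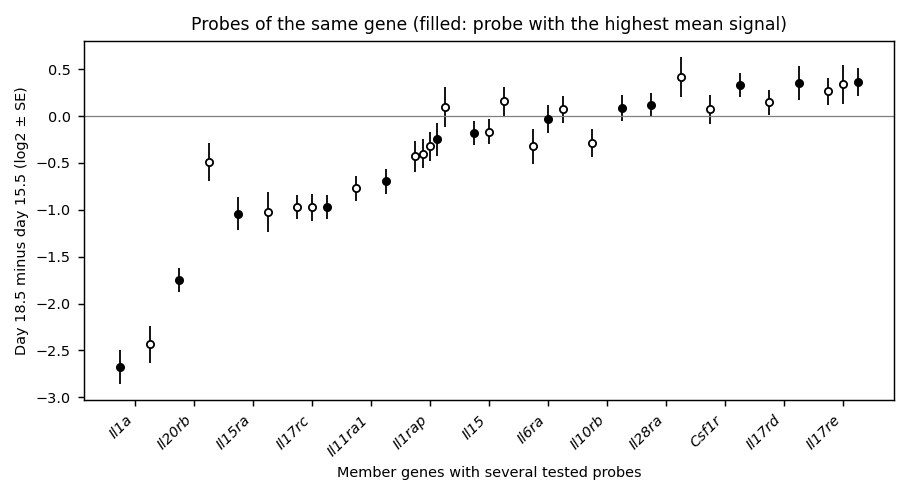
Log2 difference between the days (y axis, day 18.5 minus day 15.5) of every tested probe of the 13 genes with at least 2 tested probes (x axis). The filled point is the brightest probe of the gene, open points are its other probes, and lines are 1 SE. The 3 probes of Il17rc lie at -0.97, and the 2 of Il20rb at -1.75 and -0.49.

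Of the 18 called genes, 12 stayed called under every alternative of the processing that tested them, and 6 (Il1rn, Il18r1, Il23a, Il2rg, Il3ra and Lifr) lost the call under at least 1. The difference of Il1r2 ranged from -3.30 to -2.92, that of Csf1 from -2.90 to -2.50, that of Il1a from -2.85 to -2.36, and that of Il1f8 from 2.37 to 3.08. The value closest to 0 came without background correction for every called gene except Csf1, Il11ra1 and Il16. Il15ra ranged from -1.17 to -0.58, Il5ra from -1.25 to -0.64, Lifr from -1.29 to -0.54, Il23a from -1.04 to -0.48, Il4ra from 0.33 to 0.71 and Il1rn from 0.26 to 0.60. The other called genes ranged from -1.90 to -1.30 (Il20rb), -1.10 to -0.89 (Il17rc), -0.80 to -0.63 (Il11ra1), -0.65 to -0.32 (Il2rg), -0.66 to -0.38 (Il3ra), 0.48 to 0.76 (Il16), 0.79 to 1.36 (Il18r1) and 1.30 to 1.54 (Il24).

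**Figure D5:**
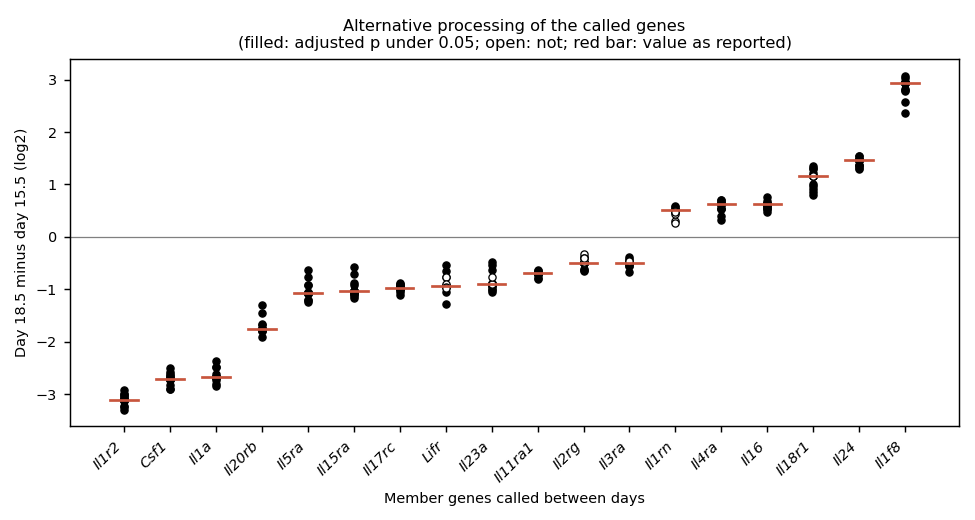
Log2 difference between the days (y axis) of the 18 called genes (x axis). Each point is an alternative of the processing, filled where the adjusted p was below 0.05 and open where it was not, and the red bar is the value as reported. No point lies on the other side of 0 from its bar, and open points appear for Lifr, Il23a, Il2rg, Il3ra, Il1rn and Il18r1.

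Genes that act downstream of these receptors were counted from lists by function. For comparison, 25.2% of all genes tested were called, 12.2% higher and 13.0% lower. Of 21 tested JAK, STAT and SOCS genes, 2 rose, 4 fell and 15 did not pass, with a median difference of -0.07. Jak1, a kinase used by many of the receptors above, fell 3.19-fold (log2 difference -1.68, adjusted p 1.27e-05), and Stat5a fell by 1.22 (adjusted p 0.000271). Cish, a feedback inhibitor, fell by 0.80 (adjusted p 0.00522), whereas Jak3, the kinase bound by the common gamma chain, rose by 0.70 (adjusted p 0.00563). Of 20 tested genes of IL-1 receptor signalling, 3 rose, 1 fell and 16 did not pass, with a median of 0.07. Irak3, an inhibitor of this signalling, fell by 1.49 (adjusted p 0.000117), and Irak4, a kinase of the receptor complex, rose by 0.89 (adjusted p 0.00179). Nfkbiz rose by 0.57 (adjusted p 0.00912) and Casp1, the protease that matures IL-1 beta, by 0.40 (adjusted p 0.0317).

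Of 8 tested genes among other helical cytokines and receptors, 3 rose (against 12.2% of all genes tested) and 5 did not pass, with a median of 0.25. Clcf1, a ligand of the gp130 family, was undetected on every day 15.5 array, was detected on all 3 day 18.5 arrays and was at least 3.46-fold higher there (adjusted p 9.52e-06). Ctf1, another gp130 ligand, rose by 1.36 (adjusted p 0.000622). Kit, the stem cell factor receptor and also a marker of mast cells, rose by 1.62 (adjusted p 0.000124).

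The remaining marker lists describe the tissue sampled. Beside their counts stand the shares over all genes tested, 12.2% called higher and 13.0% lower. The summed level of 8 smooth muscle markers was 16.60 to 16.76 at day 15.5 and 16.65 to 16.75 at day 18.5. Called lower were 3 of them, Myocd at a difference of -2.38, Smtn at -0.52 and Lmod1 at -0.38. The other 5 did not pass, among them the brightest, Acta2, at 0.07. Of 5 fibroblast markers 3 fell, among them Col1a1 by 1.86, and 2 did not pass. Of 4 endothelial markers 2 fell, among them Cdh5 by 1.70, and 2 did not pass. Of 2 tested trophoblast markers 1 rose, with summed levels of 5.65 to 7.22 and then 9.48 to 11.53. The marker that rose, Prl2a1, passed the detection filter only through the day 18.5 arrays. The 1 tested decidual marker, Prl8a2, fell by 1.66, from 11.44 to 12.25 at day 15.5 to 9.91 to 10.62 at day 18.5. The part of these tissues in the differences described was not tested.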

How the data were processed

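Per the file headers, the deposited unnormalized table holds for each probe and array the average bead intensity and a detection p-value. The bead number was taken from the authors' deposited comparison table, with 18 to 68 beads behind each tested interleukin or colony-stimulating factor probe. The authors' normalized intensity table was used as an alternative; its method was not given in the sources used here. In the authors' deposited comparison table, the block with the ratio and false discovery rate is shifted by 1394 lines against the probe and symbol columns: all 43887 ratios equalled the ratio of geometric means at that shift (relative tolerance 1e-05). Genes were therefore taken from the symbol column, and the deposited ratio and q-value were not used. No per-sample column lacked a sample.

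Intensities were processed with neqc (background from detection p-values, offset 16, quantile normalization, log2) in limma 3.58.1 under R 4.3.3. Probes with detection p below 0.05 on at least 3 of 6 arrays were kept (20701), and days were compared with lmFit and eBayes over all of them, two-sided, with Benjamini-Hochberg adjustment. Each fit used all 6 arrays. A gene not detected on a whole day is given as a bound: the brighter day's mean against, per array, the lowest detected signal or the probe's own, whichever was higher. Such a bound holds for this processing only, and alternatives such as no background correction can give smaller differences. Bead arrays hold no read depth, and the number of arrays limits the precision. The fit was tested on simulated data.

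Named are all called genes, the brightest member of each role list, a set of cytokines whatever their values, further probes of these, and leading genes of the pathway and cell type lists. Other genes were named after their values were seen. Members and lists were chosen with earlier results of these data known. Same-numbered arrays did not deviate together (correlations -0.16, 0.14 and -0.07), so replicate numbers were not treated as pairs. The 15 alternatives changed the offset, background correction, normalization, filter, variance model, block, probe choice or left out an array.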

Additional observations from a re-analysis of the deposited data

How the results depend on the processing

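Over 15 alternatives, 546 values were recomputed for 38 named probes: 515 kept their side of the threshold, 4 of them with the other sign and uncalled both times, 7 passed only under the alternative, 24 no longer passed, and no called value changed sign. Median scaling, which moved the median of all probes from 0.01 to -0.11, called 26 probes lower in place of 17 and 18 genes lower in place of 12, while the share of all probes called lower went from 13.2% to 19.7% and that called higher from 11.6% to 8.20%. With detection at p below 0.01 on all 6 arrays, 45 of the probes and 32 of the genes were left, with 3 probes and 3 genes called higher in place of 6, and 12 probes and 8 genes called lower. Of all probes, 12.6% were then called higher and 14.3% lower. The called genes Il15ra, Il18r1, Il1rn, Il23a, Il4ra, Il5ra and Lifr were not tested under this filter. Leaving out single arrays gave 5 to 8 probes called higher and 15 to 19 lower, and 5 to 7 genes called higher and 10 to 12 lower. The share of all probes called higher was 8.42% to 10.7% in these fits, and that called lower 9.79% to 12.1%. The replicate number as a block called 6 probes higher and 18 lower, and 6 genes higher and 12 lower, with 1 of the 12 replaced. Of all probes, the block called 10.1% higher and 11.7% lower. It ended the call of Il2rg (adjusted p 0.0921) and brought Il1rl2 (0.0426) and the second probe of Il20rb (0.0402) past the threshold. The call of Il2rg, the closest to the threshold, was also lost without background correction (adjusted p 0.0568), without a detection filter (0.0980) and with a trended and robust variance (0.0547). Those of Lifr, Il1rn, Il23a, Il3ra and Il18r1 were lost as given beside them. The cause of these changes was not tested. With the brightest probe of each gene alone, counts of probes do not apply. Levels near the detection limit of 5.34 to 5.52 may understate differences, and the size of such differences depended on the processing. Without background correction, Il1rn differed by 0.26 in place of 0.52 and Il23a by -0.48 in place of -0.89.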
